A study of Mus musculus with 148 samples.

Results

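Lysosomal genes were described across the myeloid cells of mouse lungs and breast tumors in a model of spontaneous breast cancer metastasis. The set is a list of 32 named genes, with no threshold on a measured value, and all 32 were found among the 52634 gene rows of the count tables. For each mouse, tissue and cell label with at least 10 cells, the UMIs (unique molecular identifiers, each marking 1 captured mRNA molecule) of the cells were summed and scaled to CPM (counts per 1000000 UMIs of the sum). The module score of such a sum is the mean of log2(CPM + 1) over the 32 genes, and beside it stands the share of all UMIs that the 32 genes took together. Reads came from the 3′ end of each mRNA and each molecule counted once, so a CPM value does not grow with transcript length.

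Lysosomes are acidic organelles that break down protein, glycan, lipid and nucleic acid taken up by endocytosis and phagocytosis or delivered by autophagy. A proton pump, the V-ATPase, acidifies the lumen, soluble hydrolases such as the cathepsins act there, and heavily glycosylated membrane proteins line the inner face. Macrophages are professional phagocytes rich in lysosomes, and the transcription factor TFEB is known to bind a short palindromic element in the promoters of many lysosomal genes.

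The tumor-bearing mice were female C57BL/6 carrying photoactivatable GFP (PA-GFP), injected at 8 weeks of age with EO771-tdTomato, a fluorescent mouse breast carcinoma line, in the mammary gland. Control mice also carried PA-GFP, so every group shared that transgene. The 63 samples of 27 mice fell into 8 groups: control lungs (Normal, 3 mice), lungs of tumor-bearing mice before resection (Pre-MET, 3 mice), primary tumors (Primary, 4 mice), and, in mice whose tumor was resected after 3 weeks, lungs that stayed free of metastasis (Relapse-free, 6 mice), lung sections with metastasis (MET, 13 mice), distal normal tissue of metastasis-bearing lungs (14 mice), and photoactivated metastasis cores (MET Core, 13 mice) and invasive margins (MET Invasive margin, 7 mice). Cells were sorted as CD31- and CD45+, or, after photoactivation, as CD31- and GFP+. Cores and margins were sorted without the CD45 gate, except the core of mouse 17, and the margin plates of mouse 17 carry a photoactivation target of non-metastatic tissue. Mice 8, 9 and 10 gave both the Pre-MET lungs and a primary tumor. All tumor groups rest on a single cell line in a single strain. The study's own clustering labelled 13014 of 24020 cells as monocytes (6308 cells), macrophages (1791), neutrophils (3972) or dendritic cells (DCs, 943), under 17 labels. DC_pDC had no sum of 10 cells, so 16 labels are described.

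The 148 plates held between 31832 and 2176517 UMIs over all their wells (median 225332). A label sum held between 5720 and 731354 UMIs (median 49195), and 19 of the 285 label sums held fewer than 10000. No well was shared by plates. In monocytes the median cell held between 1000 and 1767 UMIs in the lung groups and 6239.75 in Primary. Macrophage markers summed to 2037 CPM in Mac_Cd9 and to between 5540.3 and 19328 CPM in the other macrophage labels. In the monocyte labels they summed to between 1362 CPM (Mon_Fn1) and 3263 CPM (Mon_Ace), so this list does not set Mac_Cd9 apart from monocytes. Mac_Cd9 carried the alveolar macrophage markers (15195 CPM, against at most 598 CPM in the other 3 macrophage labels). Neut_PMN-MDSC was low in neutrophil markers, at 18191 CPM against at least 98048 CPM in the other neutrophil labels, and high in the regulatory macrophage markers, at 4970.5 CPM. The latter list summed to 7304 ± 2232 CPM in Mac_Gpnmb, 5226 ± 2289 CPM in Mac_Isg20, 3976 CPM in Mac_Cd9, 864 CPM in Mac_Cd81 and 1540 CPM in Mon_Thbs1. It therefore did not set Mac_Gpnmb apart from Mac_Isg20 by more than the SD. Control cells came from batch SB102 and Pre-MET cells from SB99 and SB111, so batch and group cannot be told apart there.

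Promoter sequence was looked at first, because TFEB has a known target element. RefSeq promoter windows (GRCm38.p6, from 250 bases before to 50 bases after the start of transcription) were found for 26 of the 32 genes and not for Ctsb, Ctsh, Npc1, Asah1, Atp6v0d2 and Atp6v1h. The E-box CACGTG, which reads the same on both strands, lay in the windows of 8 of these 26 genes (30.8%), in 17 of 67 other lysosomal genes (25.4%) and in 2187 of 27025 genes in all (8.09%). The longer form GTCACGTG, which contains the E-box and was searched on both strands (CACGTGAC on the other), lay in 6 of the 26 (23.1%), in 13 of the 67 (19.4%) and in 689 of the 27025 (2.55%). These 6 genes are shown because they carry the longer form, with its 8 bases in capitals and 5′ to 3′ on the strand of the gene. A single match is shown for each, and the windows of Ctsa, Ctsd and Mcoln1 held a further match.
Ctsa, chr2:164833749-164833776 (+): tgagcaaactGTCACGTGatgcagatgc
Ctsd, chr7:142387908-142387935 (-): gcccgcgtctCACGTGACccgttgaggg
Glb1, chr9:114401018-114401045 (+): ctgcttctgaGTCACGTGgcctacagag
Lamp1, chr8:13159123-13159150 (+): tgccgactggCACGTGACcacatcacgt
Lgmn, chr12:102439126-102439153 (-): tggaatgtctGTCACGTGgtccatttta
Mcoln1, chr8:3500436-3500463 (+): ggtcgcgcttGTCACGTGttcagttcag
In the GENCODE annotation of the same build, the windows of Ctsa and Ctsd lay in exons outside the coding sequence and that of Lgmn in an intron. The window of Mcoln1 crossed the start of the gene, and those of Glb1 and Lamp1 lay before it. A match is a description of the letters and not a binding site.

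Across the labels, the mean lysosomal score stood highest in macrophages and lowest in neutrophils. The score was 8.65 ± 0.81 (SD, n = 14 sums) in Mac_Gpnmb, the label of the regulatory macrophages, 7.99 ± 0.39 (n = 11) in Mac_Cd9, 7.49 ± 0.66 (n = 15) in Mac_Isg20 and 7.48 ± 1.18 (n = 9) in Mac_Cd81. Monocytes followed, from 6.97 ± 0.81 (n = 25) in Mon_Thbs1 through Mon_Fn1 and Mon_MHC-II to 6.47 ± 0.78 (n = 32) in Mon_Ace. The DC labels lay between 4.86 and 5.77, and the neutrophil labels between 2.81 ± 0.54 (n = 4) in Neut_Camp and 4.73 ± 1.51 (n = 5) in Neut_PMN-MDSC. Each step between neighbours in this order was smaller than the larger SD of the pair, except the last, from Neut_Ifit3 to Neut_Camp. The labels come from clustering the same cells on their genes, so these levels are a description and no test was made between labels. The labels also pool different tissues. The Mac_Gpnmb sums scored 8.52 ± 0.46 in MET (n = 7), 9.15 ± 0.30 in the invasive margin (n = 4) and 8.28 ± 1.66 in MET Core (n = 3). No other macrophage label had a margin sum. The only Mac_Cd9 sum of MET scored 8.35, so the lead of Mac_Gpnmb over Mac_Cd9 mixes label with tissue. The 4 Mac_Cd81 sums of Primary scored 8.38 ± 0.18, those of MET 7.44 (n = 2) and those of MET Core 6.31 ± 1.21 (n = 3), whereas all Mac_Isg20 sums came from MET (n = 8) and MET Core (n = 7), and 7 of the 11 Mac_Cd9 sums from Normal and Relapse-free lungs.

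The share of UMIs set Mac_Gpnmb further apart. The 32 genes took 5.20% ± 1.37 of all UMIs there, against 2.57% in Mac_Cd81, 2.48% in Mac_Isg20 and 2.13% in Mac_Cd9. Mac_Cd9, second by score, was thus the lowest macrophage label by share. The share lay between 1.42% and 1.81% in monocytes, between 0.762% and 1.08% in DCs, and between 0.206% and 1.1% in neutrophils. T cells (0.317%), NK cells (0.372%) and B cells (0.422%), measured in the same way, lay in the range of the neutrophils. A score of log values rises with depth, since a gene with no UMI counts as 0. The 266 sums of at least 10000 UMIs were therefore thinned to that depth, leaving out 19. Mac_Gpnmb (8.17), Mac_Cd9 (7.4), Mac_Cd81 (7.16) and Mac_Isg20 (6.77) were again above the monocyte labels. Among these, Mon_Thbs1 (6.07) still led, but Mon_Fn1 (5.87) fell to the lowest place, under Mon_MHC-II (5.96) and Mon_Ace (5.88). Mon_Fn1 was also the lowest monocyte label by share (1.42%). The steps between monocyte labels lay within the SD. At the low end Neut_PMN-MDSC (4.4) then stood above DC_cDC1 (4.33) and DC_migDC (3.63), and its share of UMIs (1.1%) was above that of each DC label. Mac_Cd81 and Mac_Isg20 also changed places, but Mac_Cd81 had lost its lowest sum (the core of mouse 24, score 5.10, 8823 UMIs), and without that sum its score before thinning was already 7.78.

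**Figure D1:**
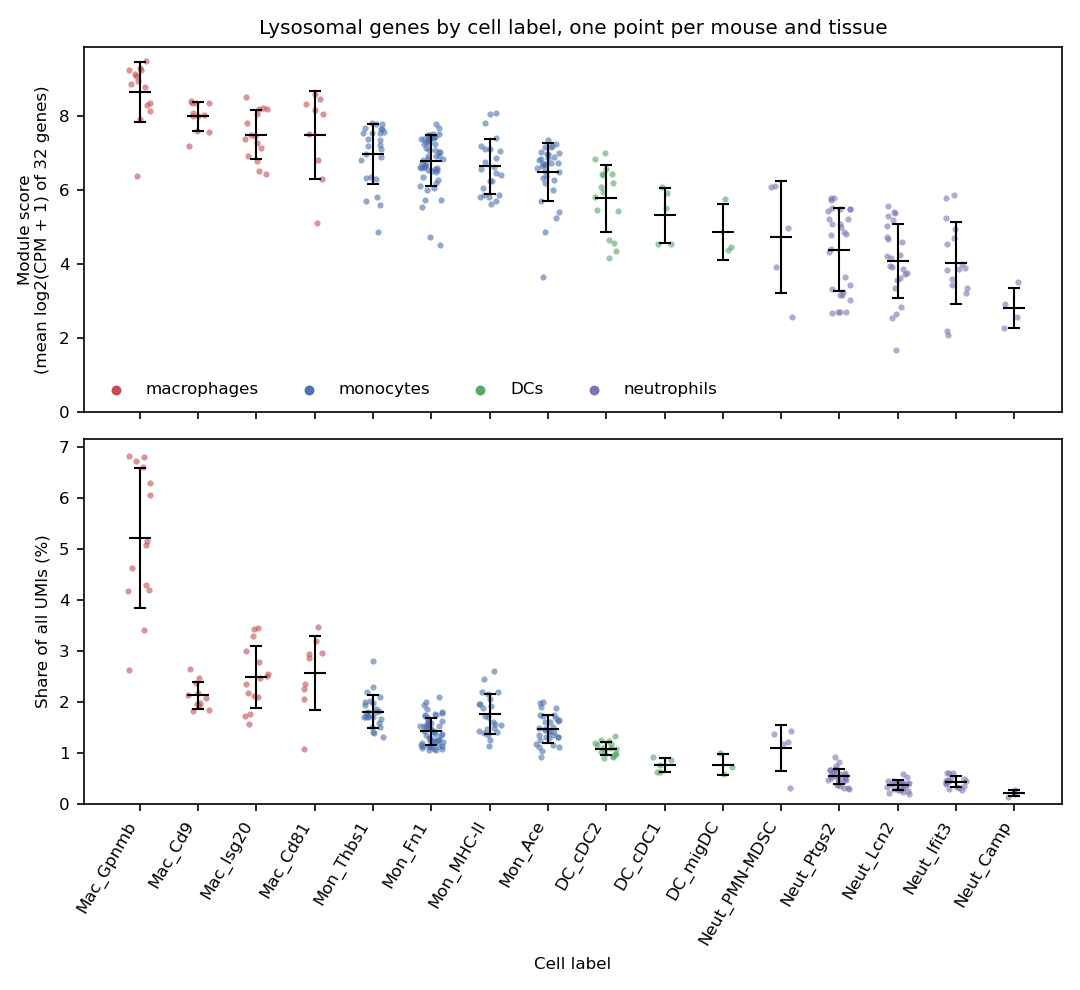
Module score (upper panel, mean log2(CPM + 1) of the 32 genes) and share of all UMIs in percent (lower panel) by cell label, with 1 point per mouse and tissue and with mean and SD as bars. Mac_Gpnmb has the highest mean in both panels (8.65 and 5.20%), and Neut_Camp the lowest (2.81 and 0.206%).

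Member by member, 18 of the 32 genes had their highest mean in Mac_Gpnmb and 27 in a macrophage label. The lowest mean lay in a neutrophil label for 25, and in Neut_Camp for 18. Neut_Camp rests on 4 sums, and neutrophil markers summed to 360187 CPM there. The same counts over all genes are not given here. For 25 genes the gap between the highest and the second label was smaller than the SD, so the leading label of a single gene is often uncertain. Outside the macrophage labels peaked Man2b1 and Ppt1 (DC_cDC1), Tfeb (Mon_Ace), Lamp2 (Neut_Ptgs2) and Npc1 (Neut_PMN-MDSC).

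**Figure D2:**
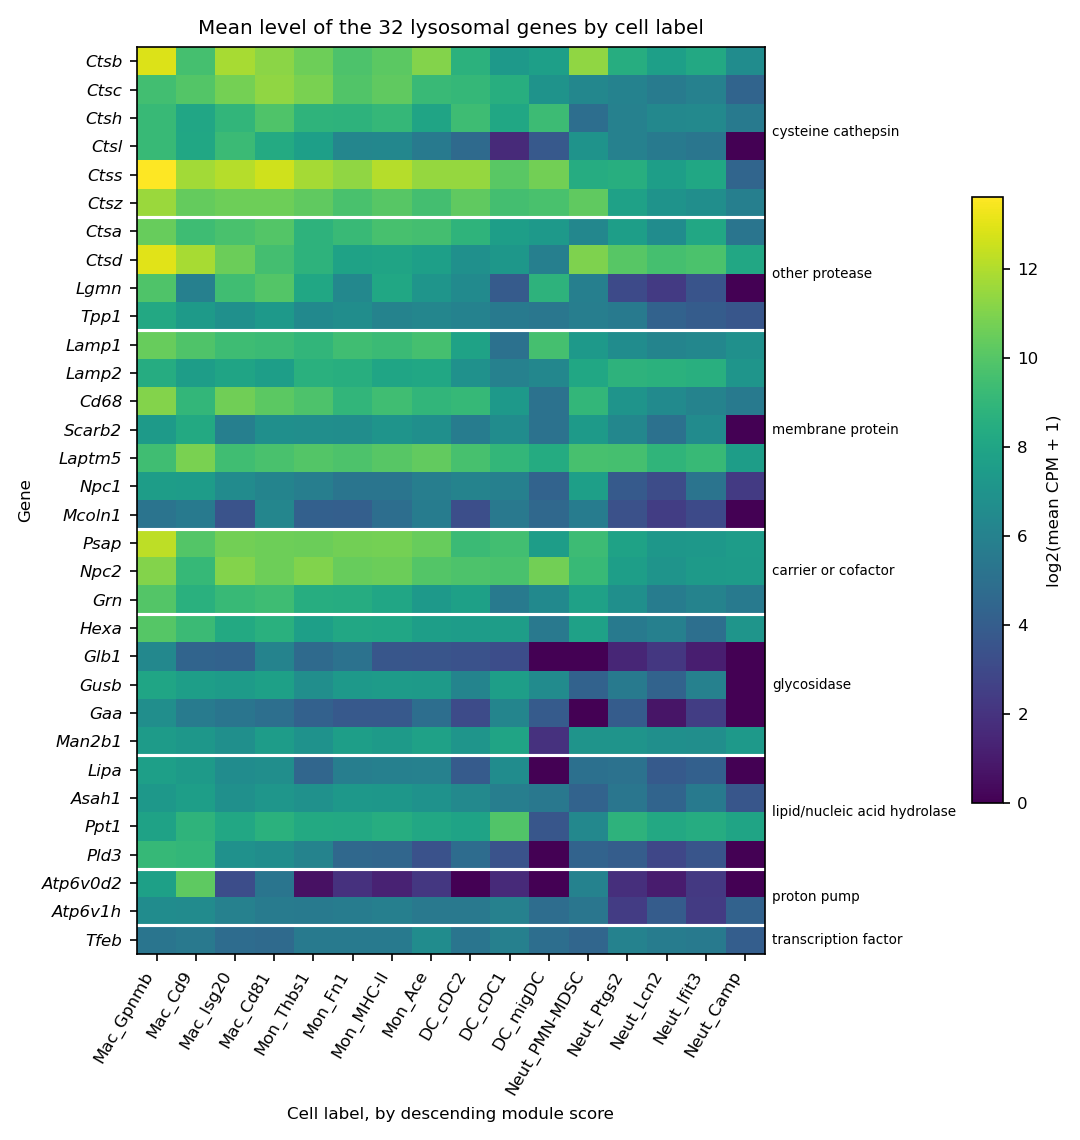
Mean level of each of the 32 genes (rows, grouped by role) in each label (columns, by descending score), as log2(mean CPM + 1) in color. Ctss, Ctsb and Ctsd in Mac_Gpnmb are the brightest cells, and Atp6v0d2 is brightest in Mac_Cd9.

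The cysteine cathepsins held the most abundant member. Ctss (cathepsin S, which trims the invariant chain of MHC class II) ranged from 4706 through a median of 11738 to 19471 CPM over the 14 Mac_Gpnmb sums, and its mean of 12518 ± 4296 CPM was above the 6221 ± 4045 CPM of Mac_Cd81, the next label. Ctsb (cathepsin B, a broad endopeptidase and exopeptidase) ranged from 2887 through 7688 to 12599.9 CPM in Mac_Gpnmb, with a mean of 7703 ± 3106 CPM, against 3674 ± 1650.5 CPM in Mac_Isg20. Ctsz (cathepsin Z, a carboxypeptidase) averaged 2999 ± 1003 CPM in Mac_Gpnmb. These 3 genes thus led in the same label, each by more than the SD. Other cathepsins did not. Ctsc (cathepsin C, which activates the serine proteases of granules) ranged from 242 through 696 to 1304 CPM in Mac_Gpnmb but from 1414 through 2631 to 3708 CPM in Mac_Cd81, so the sums of the 2 labels did not overlap. It was also high in Mon_Thbs1 (1847 ± 836 CPM). Ctsh (cathepsin H, an aminopeptidase) was highest in Mac_Cd81 (944 ± 172 CPM) and next in DC_cDC2 (678 ± 305 CPM), and Ctsl (cathepsin L, an endopeptidase) in Mac_Isg20 (629 ± 300 CPM) and Mac_Gpnmb (583 ± 286 CPM), a gap within the SD.

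Of the other proteases, Ctsd (cathepsin D, the main aspartic protease of the lysosome) ranged from 4231 through 7743 to 14496 CPM in Mac_Gpnmb, with a mean of 8178 ± 3832 CPM, against 3618 ± 741 CPM in Mac_Cd9. Unlike most members it was low in monocytes and DCs: the label means averaged 282 CPM in monocytes and 107 CPM in DCs but 1009 CPM in neutrophils. NK cells held 837 ± 376 CPM, so a level near 1000 CPM was not particular to myeloid cells. Ctsa (cathepsin A, a carboxypeptidase that also protects beta-galactosidase) averaged 1401 ± 550.3 CPM in Mac_Gpnmb. Lgmn (legumain, an asparaginyl endopeptidase that matures other cathepsins) averaged 1016 ± 878 CPM in Mac_Cd81 and 936 ± 573 CPM in Mac_Gpnmb, and had no UMI in the 4 Neut_Camp sums, which allows at most 25.3 CPM there (3 UMIs over the summed depth, counting error only). Tpp1 (tripeptidyl peptidase) was highest in Mac_Gpnmb at 297 ± 162 CPM.

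Among the membrane proteins, Cd68, the sialomucin used as a macrophage marker, averaged 2147 ± 740 CPM in Mac_Gpnmb and 1609.9 ± 518 CPM in Mac_Isg20. It was near 0 in lymphocytes, with 14.7 CPM in T cells. Lamp1, a major glycoprotein of the lysosomal membrane, was also highest in Mac_Gpnmb (1385 ± 509.8 CPM). Lamp2, its relative with a part in chaperone-mediated autophagy, was highest in neutrophils, at 445 ± 240.1 CPM in Neut_Ptgs2 against 338 ± 159 CPM in Mac_Gpnmb. Laptm5, a transmembrane protein of hematopoietic lysosomes, was lower in Mac_Gpnmb (688 ± 354 CPM) than in Mac_Cd9 (1879 ± 527 CPM) or Mon_Ace (1319 ± 639 CPM), and T cells held 611 ± 337 CPM. Scarb2, the receptor that carries beta-glucocerebrosidase to the lysosome, averaged 312 ± 170.5 CPM in Mac_Cd9. Npc1, which exports cholesterol, averaged 205 ± 166 CPM in Neut_PMN-MDSC on 28 UMIs in all, against 187 ± 94.4 CPM in Mac_Gpnmb. Mcoln1, the calcium channel mucolipin, reached only 74.8 ± 86.4 CPM in Mac_Cd81 and had no UMI in 3 of its 9 sums.

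Carriers and cofactors also had their highest mean in Mac_Gpnmb, but not all kept macrophages above monocytes. Psap, the precursor of the saposins that present sphingolipids to their hydrolases, averaged 4834 ± 2669 CPM in Mac_Gpnmb and 1729.6 ± 1019.8 CPM in Mon_MHC-II, the next label, above the means of the other 3 macrophage labels (1018 to 1696 CPM). Npc2, which hands cholesterol to Npc1, did not separate Mac_Gpnmb (2169.7 ± 644 CPM) from Mac_Isg20 (2149 ± 901 CPM), and was higher in Mon_Thbs1 (2120.1 CPM) than in Mac_Cd81 (1579 CPM) or Mac_Cd9 (554 CPM). T cells held 590.2 ± 238 CPM. Grn, the precursor of the granulins, was highest in Mac_Gpnmb (1012 ± 569 CPM).

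The glycosidases were less abundant. Hexa (a subunit of beta-hexosaminidase) averaged 1055 ± 427 CPM in Mac_Gpnmb, more than the SD above Mac_Cd9 (616 ± 168 CPM). Gusb (beta-glucuronidase) averaged 256 ± 111 CPM, Gaa (acid alpha-glucosidase) 106 ± 49.4 CPM and Glb1 (beta-galactosidase) 79.6 ± 113 CPM in the same label. Man2b1 (lysosomal alpha-mannosidase) had its highest mean in DC_cDC1, 249.7 ± 331 CPM over 5 sums with a median of 138 CPM.

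Of the lipid and nucleic acid hydrolases, Pld3 (an exonuclease of the phospholipase D family) had a median of 403 CPM in Mac_Gpnmb and of 538 CPM in Mac_Cd9, against label means that averaged 30.3 CPM in monocytes. Lipa (lysosomal acid lipase) averaged 207 ± 119 CPM in Mac_Gpnmb. Asah1 (acid ceramidase) was highest in Mac_Cd9 (198 ± 82.5 CPM), and Ppt1 (a palmitoyl-protein thioesterase) in DC_cDC1, where 5 sums ran from 43.5 through 454 to 2155 CPM. A spread of that size leaves the place of Ppt1 in DC_cDC1 uncertain.

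The proton pump subunit Atp6v0d2 was the most restricted member. It ranged from 645 through 1180.9 to 1918 CPM in the 11 Mac_Cd9 sums, and from 0 through 154 to 576 CPM in the 14 Mac_Gpnmb sums, so the 2 labels did not overlap. Only 59 of the 285 label sums held a UMI of it, and in DC_cDC2 none was seen in 16 sums, which allows at most 2.38 CPM. Atp6v1h, a cytosolic subunit of the same pump, was low throughout, with at most 96.4 ± 76.8 CPM. Tfeb itself was highest in Mon_Ace (97.8 ± 95.9 CPM) and averaged 38.8 ± 52.9 CPM in Mac_Gpnmb, where the score was highest.

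Mac_Gpnmb and Mac_Isg20, the 2 macrophage labels most frequent in MET samples, were next compared inside the same mouse and tissue. Depth, and the plates from which each label drew its cells, could still differ between the labels. Both labels had at least 10 cells in 9 samples of 8 mice (7 MET and 2 MET Core). The score ran from 6.37 to 9.23 in Mac_Gpnmb and from 6.79 to 8.50 in Mac_Isg20, and the difference averaged 0.77 ± 0.77 (SD, n = 9). It was above 0 in 8 of 9 samples, the exception being the core of mouse 30 (-1.09), where Mac_Gpnmb had 10 cells and 15936 UMIs. The share of UMIs was higher in Mac_Gpnmb in 9 of 9 samples, by 2.19 ± 0.88 percentage points. The gain was uneven over the genes: 5 were higher in all 9 samples, namely Ctsd (log2 difference 1.95 ± 0.43), Ctss (1.60 ± 0.61), Psap (1.01 ± 0.55), Ctsb (0.81 ± 0.48) and Lamp1 (0.66 ± 0.50). The labels come from clustering the same cells, and the same count over all genes is not given here. No gene was lower in all 9. Ctsc was lower in 8 of 9, at 781 ± 292 CPM in Mac_Gpnmb against 1619.9 ± 460 CPM in Mac_Isg20 (log2 difference -1.08 ± 0.54). Lgmn (0.08 ± 0.49), Npc2 (0.30 ± 0.51), Cd68 (0.28 ± 0.41) and Ctsl (-0.33 ± 0.65) differed by less than their spread.

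**Figure D3:**
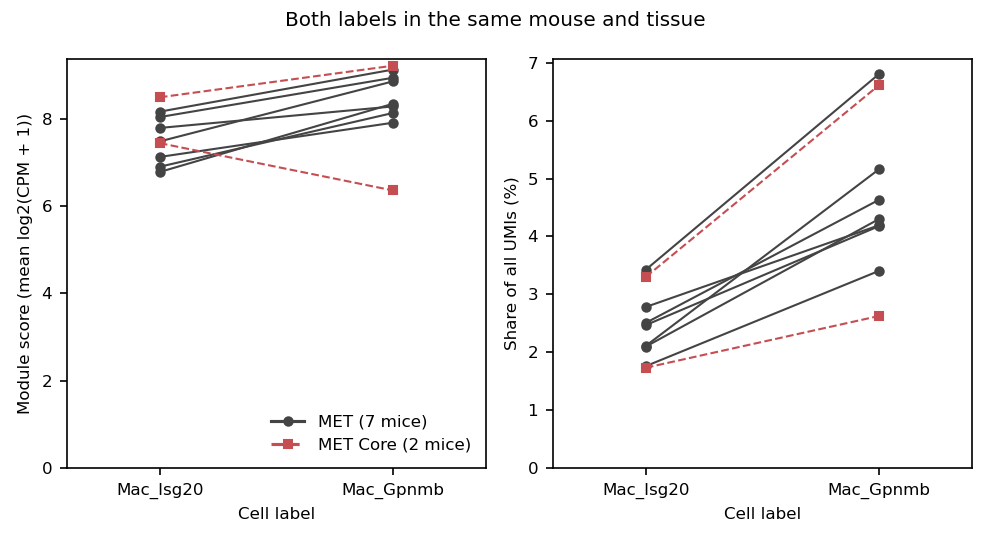
Module score (left) and share of all UMIs in percent (right) of Mac_Isg20 and Mac_Gpnmb cells, joined by a line within each of 9 samples. The share is higher in Mac_Gpnmb in all 9 samples, and the score in 8.

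The comparison of metastasis core with invasive margin asked how the niche inside a lesion differs from its border. Values are edgeR log2 fold changes (core minus margin) with their SE, tested with the quasi-likelihood test and Benjamini-Hochberg adjustment over all genes tested, and a call is an adjusted p under 0.05. In monocytes (13 cores, 6 margins) 18 of the 32 genes had enough UMIs to be tested and none was called, against a background of 0% of 1025 genes. At an unadjusted p under 0.05 stood 3 of the 18 and 84 of the 1025, and DESeq2 called none of the 18 and 5 of the 1025. Fold changes ran from -0.72 to 0.92, 11 above 0 and 7 below, with a median of 0.10 beside -0.01 over all genes tested. The score was 6.77 ± 0.65 in cores and 6.92 ± 0.68 in margins (-0.15). Within the 5 mice with both tissues the difference had the other sign, at 0.34 ± 0.67 (SD), above 0 in 4 of 5, with 1.54 in mouse 28 and -0.01 to 0.08 in the other 4. The score rises with depth, and in mouse 28 the core held 506065 UMIs and the margin 38725. The share of UMIs was 1.62% ± 0.41 in cores and 1.51% ± 0.33 in margins, and in each of these 5 mice it was higher in the core.

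In 5 mice monocytes came from both tissues, and with mouse as a block (a fit that leaves out the unpaired mice) 4 of 19 genes were called higher in the core, against a background of 4.28% of 1354 genes called, 3.32% higher and 0.96% lower. Mouse 17 is among these mice. Its core was sorted with the CD45 gate and its margin was not, and its margin plates carry a non-metastatic target. Ctsc was 1890 CPM in the core and 1072 CPM in the margin of mouse 17, 1993 and 873 in mouse 26, 1804 and 620 in mouse 28, 1368 and 1185 in mouse 31, and 3026 and 708 in mouse 36. Its core was thus above its margin in 5 of 5 mice, by 1.19 ± 0.25 on the log2 scale (SE, adjusted p = 0.0156, edgeR). Ctss (0.72 ± 0.19, adjusted p = 0.0435), Lgmn (1.57 ± 0.43, adjusted p = 0.0495) and Cd68 (1.04 ± 0.29, adjusted p = 0.0495) were likewise higher in the core of 5 of 5 mice in this edgeR fit. Ctsz was also higher in 5 of 5 (mean log2 difference 0.65 ± 0.45, SD) but was not called. Lower in the core of 5 of 5 mice, and not called, were Hexa (-0.85 ± 0.71), Lamp1 (-0.50 ± 0.36) and Psap (-0.40 ± 0.16). Over all mice the groups overlapped, with Ctsc from 346 through 1529 to 3026 CPM in cores and from 587 through 791 to 1185 CPM in margins. Lgmn rested on few molecules, with 0 UMIs in the margin of mouse 28, and within batch SB124 its difference was negative (-0.56). The makeup also differed, here over all 13 cores and 6 margins and not only the paired mice. Mon_Thbs1, where Ctsc was high, made up 43.7% of core monocytes and 11.7% of margin monocytes, and regulatory macrophage markers summed to 1041 and 268 CPM. Their part in the result was not tested. In such sums, fewer cells of a type and less RNA per cell cannot be told apart.

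In macrophages (10 cores, 4 margins) none of 27 genes was called, against a background of 0% of 1743 genes. At an unadjusted p under 0.05 stood 10 of the 27 and 178 of the 1743 genes in edgeR, and DESeq2 called none of the members and 12 genes in all. The fold changes leaned below 0, with 24 negative and 3 positive, and their median was -0.71 beside 0.00 over all genes tested. The lean was smaller in the 2 mice with both tissues, mice 17 and 36. In mouse 17 only the core was sorted with the CD45 gate, and the margin plates carry a non-metastatic target. With mouse as a block 14 of 29 fold changes were positive and 15 negative, from -2.85 (Atp6v0d2) to 1.28 (Ctsc), with none called against 0% of 2786 genes, 85 of them at an unadjusted p under 0.05 in edgeR. Without the block, 13 of the 29 were positive in the same 2 mice. Ctsd ranged from 698 through 1689.5 to 6385 CPM in cores and from 7295 through 9435 to 13468 CPM in margins (log2 fold change -1.83 ± 0.50, adjusted p = 0.141, edgeR). Ctsc went the other way, from 376 through 1622 to 2352 CPM in cores and from 686 through 740.5 to 821 CPM in margins. The score was 7.75 ± 0.95 in cores and 9.06 ± 0.33 in margins, a difference of -1.32 that shrank to -0.29 in the 2 mice with both tissues (-0.26 in mouse 17 and -0.32 in mouse 36). The share of UMIs was 2.95% ± 1.28 in cores and 5.50% ± 0.85 in margins. It was 2.86% in the core and 4.89% in the margin of mouse 17, and 4.90% and 5.65% in mouse 36. Mac_Gpnmb made up 23.5% of core macrophages and 79.4% of margin macrophages, and Mac_Isg20 56.4% and 13.8%, and the part of this makeup was not tested. Within Mac_Gpnmb cells alone (3 cores, 4 margins) none of 26 genes was called, against 0% of 1026 genes, with 19 genes at an unadjusted p under 0.05 and no call by DESeq2.

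In neutrophils (6 cores, 5 margins) only Ctsd had enough UMIs to be tested, and it was not called (log2 fold change 0.34, adjusted p = 0.727, edgeR, background 0.463% of 216 genes). Within Mon_Fn1 (7 cores, 5 margins) none of 12 genes was called, against 0% of 538 genes, with 26 genes at an unadjusted p under 0.05 and no call by DESeq2. DCs gave 7 cores and 1 margin and were not tested.

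**Figure D4:**
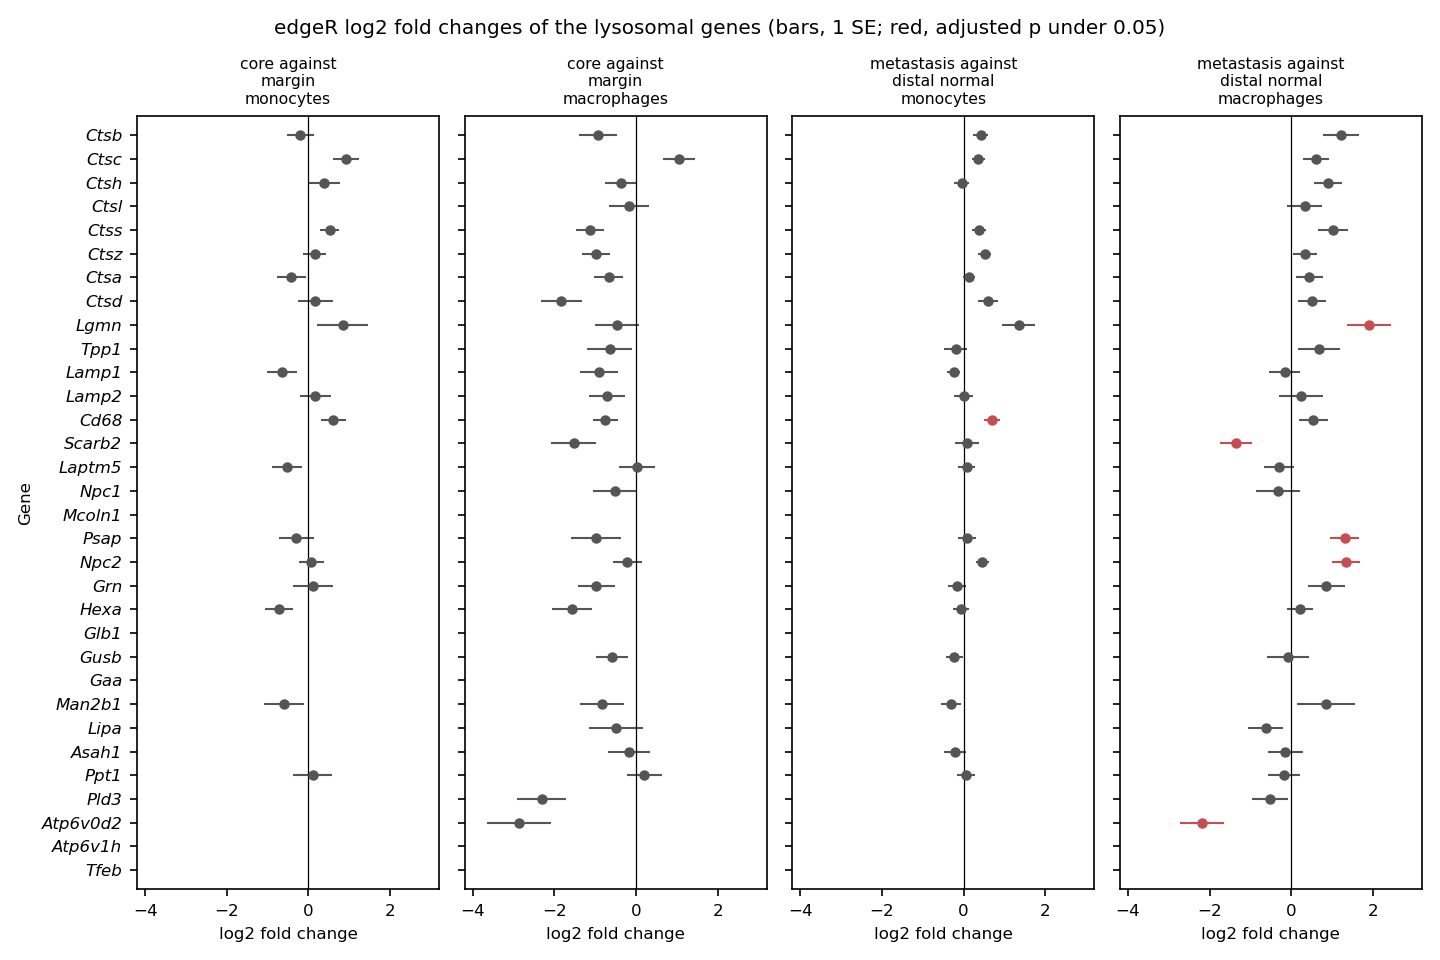
Log2 fold changes (± 1 SE, edgeR) of the lysosomal genes in core against margin and in MET against distal normal tissue, each in monocytes and in macrophages, with red points for an adjusted p under 0.05 and gaps where a gene was not tested. In core against margin in macrophages 24 of 27 points lie below 0 in this unpaired fit (15 of 29 with mouse as a block, 2 mice), and Lgmn, Npc2 and Psap stand above 0 and Scarb2 and Atp6v0d2 below 0 in macrophages of MET against distal normal tissue.

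Metastasis-bearing lung sections (MET) were next set against distal normal tissue, mostly of the same lungs, to see what differed near the lesion. Of 22 genes tested in monocytes (13 MET, 14 distal), 1 was called, against a background of 1.48% of 2098 genes, so the share of members called (1 of 22) rests on a single gene. Cd68 ranged from 224 through 589 to 1126 CPM in MET and from 193 through 377 to 536 CPM in distal tissue. The ranges overlapped, and the MET value was the higher in 12 of 13 mice with both (log2 fold change 0.69 ± 0.19, adjusted p = 0.0446, edgeR). Within batches the difference was 0.21 in SB118, 1.29 in SB124 and 0.50 in SB128.

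With mouse as a block (13 mice), 5 of 22 genes were called higher in MET monocytes and none lower, against a background of 3.99% of 1979 genes, 3.54% higher and 0.455% lower. Beside Cd68 (0.64, adjusted p = 0.0197, edgeR) these were 2 cathepsins, Ctsz (0.57, adjusted p = 0.00569) and Ctss (0.45, adjusted p = 0.0347), the protease Lgmn (1.39, adjusted p = 0.00444) and the cholesterol carrier Npc2 (0.47, adjusted p = 0.0384). Ctsz, Ctss, Lgmn and Cd68 were each higher in 12 of 13 mice and Npc2 in 11. Lgmn was scarce, from 32.0 through 139 to 404 CPM in MET and from 0 through 57.7 to 160.1 CPM in distal tissue, where 4 sums held no UMI. Mon_Thbs1 made up 25.5% of MET monocytes (n = 13) and 5.28% of distal monocytes (n = 14), and regulatory macrophage markers summed to 493 and 181 CPM. Their part in the result was not tested. Within Mon_Fn1 (13 against 13) none of 19 genes was called, against 0% of 1292 genes, with 17 genes at an unadjusted p under 0.05, and within Mon_Ace (7 against 8) none of 11, against 0% of 671 genes, with 22. DESeq2 called none in either label.

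Macrophages (9 MET, 6 distal) had the most members called, and also the highest background. Of 27 genes tested, 3 were higher in MET and 2 lower, against a background of 9.54% of 1289 genes called, 6.9% higher and 2.64% lower. Lgmn ranged from 266 through 755 to 1466 CPM in MET and from 0 through 145 to 482 CPM in distal tissue. The ranges overlapped, and the MET value was higher in 5 of 5 mice with both (log2 fold change 1.91 ± 0.54, adjusted p = 0.0241, edgeR). Npc2 ranged from 1295 through 1828 to 2864 CPM in MET and from 392 through 722 to 1672 CPM in distal tissue (1.33 ± 0.35, adjusted p = 0.0151, edgeR). Psap ranged from 1289.8 through 2902 to 5593 CPM and from 672 through 1416 to 1881 CPM (1.30 ± 0.36, adjusted p = 0.0206, edgeR). Npc2 and Psap, both carriers, were thus higher with overlapping ranges, again in 5 of 5 mice.

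Both genes lower in MET had their highest mean in Mac_Cd9. Scarb2 ranged from 46.3 through 107 to 185 CPM in MET and from 198 through 321 to 549 CPM in distal tissue (-1.35 ± 0.39, adjusted p = 0.0241, edgeR). Atp6v0d2 ranged from 0 through 61.7 to 537 CPM and from 396 through 741 to 1270.0 CPM, overlapping in 1 MET sum (-2.18 ± 0.54, adjusted p = 0.0115, edgeR). Each was lower in 5 of 5 mice with both tissues. Within batch SB118 the 5 differences kept their signs, at 2.76 (Lgmn), 1.30 (Npc2), 0.58 (Psap), -1.80 (Scarb2) and -3.39 (Atp6v0d2).

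The makeup and the depth moved with these calls. Mac_Cd9 made up 63.6% of distal and 7.65% of MET macrophages, and alveolar macrophage markers, all 7 of them detected, summed to between 3963 and 15443 CPM in distal and between 104 and 3681 CPM in MET sums. Monocyte markers went the other way, from 314 to 849 CPM in distal and from 983 to 2801 CPM in MET sums. Distal sums held 10 to 20 cells and at most 35277 UMIs, against at least 64813 in MET, and Lgmn rested on 0 to 17 UMIs in each distal sum. In mouse 26 it had 0 UMIs, which allows up to 215 CPM. The part of makeup and depth in the result was not tested, and no test was run within a macrophage label: Mac_Cd9 gave 3 distal sums and 1 MET sum, and the other 3 labels gave no distal sum.

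With mouse as a block (5 mice), 4 of 20 genes were higher and 3 lower, against a background of 15.7% of 762 genes, 11.3% higher and 4.46% lower. Lgmn, Npc2, Scarb2 and Atp6v0d2 stayed called, Ctsb (1.67, adjusted p = 0.00438, edgeR), Ctss (1.45, adjusted p = 0.00128) and Pld3 (-1.29, adjusted p = 0.0451) joined them, and Psap was lost (0.71, adjusted p = 0.137). Of 29 other lysosomal genes tested in the unpaired fit, 1 was called, Slc11a1 (2.13, adjusted p = 0.0174, edgeR), a metal transporter of the phagosome. In neutrophils (9 against 9) none of 8 members was called, against 0% of 715 genes, with 26 genes at an unadjusted p under 0.05, and in DCs (10 against 3) none of 13, against 0% of 621 genes, with 47. DESeq2 called none in either.

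**Figure D5:**
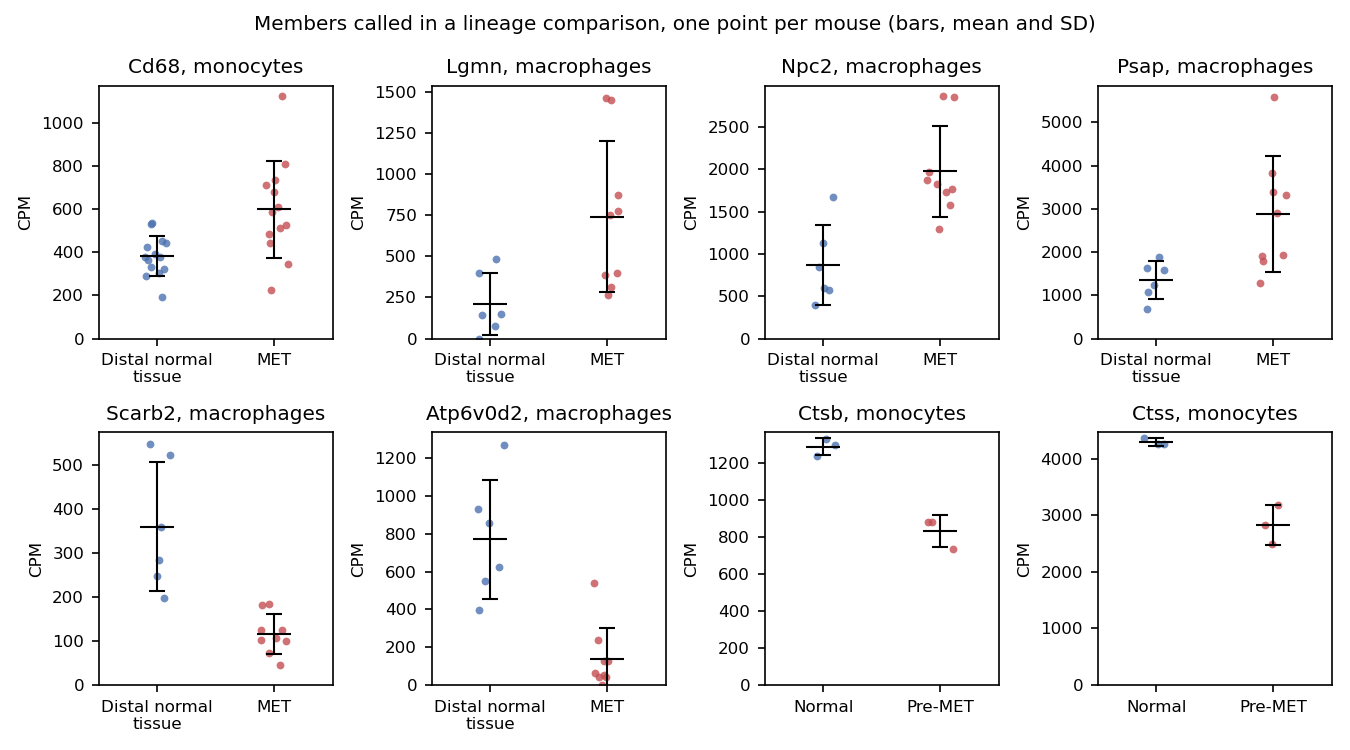
CPM of each called gene per mouse, with mean and SD: Cd68 in monocytes and Lgmn, Npc2, Psap, Scarb2 and Atp6v0d2 in macrophages of MET and distal normal tissue, and Ctsb and Ctss in monocytes of Pre-MET and control lungs. Scarb2 (MET at most 185, distal at least 198 CPM), Ctsb and Ctss do not overlap between groups, and the share of all genes without overlap is not given here.

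Pre-MET lungs were set against control lungs to see what a primary tumor alone went with. In monocytes (3 against 3) 27 genes were tested, 2 were lower and none higher, against a background of 4.32% of 4953 genes called, 2.02% lower and 2.3% higher. Ctsb was 735, 881 and 883 CPM in Pre-MET mice 8, 9 and 10 and 1333, 1241 and 1296 CPM in control mice 1, 2 and 3. Ctss was 2817, 2484 and 3179 CPM in the same Pre-MET mice and 4249, 4254 and 4365 CPM in the controls. Neither gene overlapped between groups, with log2 fold changes of -0.66 ± 0.16 (adjusted p = 0.0278, edgeR) for Ctsb and -0.63 ± 0.15 (adjusted p = 0.0205, edgeR) for Ctss. With 3 mice a side a gene can lack overlap by ordering alone, and the share of all genes without overlap is not given here. The calls were fragile: without any 1 of the mice at most 1 gene was called, Ctss without Pre-MET mouse 10. The score did not separate the groups (7.05 ± 0.26 and 7.03 ± 0.08), but it rises with depth. Pre-MET sums were deeper (median 421046 UMIs against 167340). The share of UMIs was 1.21% ± 0.14 in Pre-MET and 1.43% ± 0.05 in controls. Its ranges overlapped only narrowly (1.12% to 1.375% and 1.371% to 1.47%). Mon_Ace made up 59.0% of control and 22.6% of Pre-MET monocytes, and Mon_Fn1 23.8% and 69.6%. Macrophage markers summed to 4206 and 1069 CPM, alveolar macrophage markers to 947 and 2057 CPM, and neutrophil markers to 434 and 1401 CPM. The part of each was not tested, and batch cannot be told apart from group. Of 44 other lysosomal genes 1 was called, Cst3, the cathepsin inhibitor cystatin C (-0.74, adjusted p = 0.0081, edgeR). In neutrophils neither edgeR nor DESeq2 called any of 3 members, none of them at an unadjusted p under 0.05 (background 1.06% of 377 genes).

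Primary tumors were last set against metastasis cores. In monocytes (4 against 13) edgeR called none of 21 genes, against a background of 1.47% of 1835 genes, with 5 of the 21 at an unadjusted p under 0.05. DESeq2 called 1, Ctsa, higher in primary tumors (1.13, adjusted p = 0.0366). In edgeR 20 of the 21 fold changes were above 0, with a median of 0.49 beside 0.02 over all genes tested. Mon_MHC-II made up 44.6% of primary tumor and 11.8% of core monocytes, and Mon_Fn1 10.9% and 32.6%, and their part was not tested. Lgmn came closest, at 547 to 636 CPM in primary tumors and 72.1 to 662 CPM in cores (1.37 ± 0.40, adjusted p = 0.0727, edgeR). In macrophages (4 against 10) edgeR called none of 24 genes, against 4.53% of 2162 genes, with 6 of the 24 at an unadjusted p under 0.05. Ctsd had the smallest adjusted p (821 against 2862 CPM in the mean, -1.85 ± 0.58, adjusted p = 0.0655, edgeR), and DESeq2 called it lower in primary tumors (-1.89, adjusted p = 0.0146). Among 38 other lysosomal genes Acp5, tartrate-resistant acid phosphatase, was higher in primary tumors (1.53, adjusted p = 0.0209, edgeR) and Creg1, a lysosomal glycoprotein, lower (-1.76, adjusted p = 0.0299, edgeR). Mac_Cd81 made up 80.9% of primary tumor macrophages and 19.7% of core macrophages. Mac_Gpnmb, where Ctsd was highest, made up 3.37% and 23.5%, and Mac_Isg20 14.6% and 56.4%. Regulatory macrophage markers, high in both of these labels, summed to 1087 and 4720 CPM. The part of this makeup was not tested. In DCs (4 against 7) neither edgeR nor DESeq2 called any of 15 genes, and none of the 15 had an unadjusted p under 0.05 in edgeR (background 0.555% of 1081 genes). Gate, batch and depth differed between these groups, with a median monocyte of 6239.75 UMIs in primary tumors and 1067 in cores, so they cannot be told apart from tissue.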

How the data were processed

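Wells of 384-well plates received sorted single cells, and their 3′ mRNA ends were sequenced. Per the study's methods, the authors demultiplexed the reads (bcl2fastq 2.15.0.4 is listed in the submitters' processing notes), mapped them to the mm10 genome, left out reads that mapped to several places, and counted exonic reads per gene after merging reads with the same UMI. The deposited values are these UMI counts per gene and well, not normalized, and they hold all 384 wells of each plate. Wells under 500 UMIs were left out of the authors' analysis, carry no cell label and were not used here. Per the methods, genes whose exons overlapped on the same strand were merged under a joined symbol, while each member has a row under its own symbol. How reads were assigned by strand is not given beyond that in the sources used here, so a share of reads from genes overlapping on the other strand was not checked for some members (Ctsb, Ctsz, Ctsa, Lamp1, Grn, Hexa, Ppt1, Atp6v1h, Npc1, Ctsc).

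Counts were summed per mouse, tissue status and the authors' cell label, or over the labels of a lineage, for sums of at least 10 cells. Doublets were not called here, and the authors' annotation was taken as given. Sums were tested in edgeR 4.0.16 (R 4.3.3) with TMM normalization, filterByExpr, the quasi-likelihood test and Benjamini-Hochberg adjustment over all genes tested, calling an adjusted p under 0.05. The test script was run on simulated counts with planted changes larger than most reported here and with no mouse effect. The fit with mouse as a block was not simulated, so the run gives no measure of power or error for the results above. DESeq2 1.42.0 and a fit with mouse as a block were alternatives. Mice pair the tissues, since both came from the same animal. Over 35 pairs of sums, deviations from the means of the paired mice correlated at 0.305 on average within a mouse (-0.001 to 0.674). Some mice enter more than 1 pair, through other lineages or comparisons. Taking deviations from these means pulls the value between mice (-0.072) below 0, so it gives no separate contrast. The unblocked fit treats samples of 1 mouse as separate. A limit from 0 UMIs takes 3 UMIs, and intervals and limits cover counting error only.

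The genes described, the 82 other lysosomal genes and the marker lists were chosen with earlier results of these data known. Values are given in full for the 10 most abundant members, for members whose highest label differs from that of the score, and for members called in a comparison. Other lysosomal genes are named up to 4 per comparison by the smallest adjusted p. DCs of core and margin (7 against 1) were not fitted.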

Additional observations from a re-analysis of the deposited data

Results flagged for a closer look

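Among 28 groups of 4 to 10 samples in which the highest and lowest values were tested, 1 value stood apart: Atp6v0d2, the proton pump subunit, in macrophages of MET mouse 31, at 537.34 CPM against 0 to 238 CPM in the other 8 mice. Its gap to the next mouse was 0.557 of the whole range (Dixon's ratio, n = 9). Mac_Cd9, where Atp6v0d2 was highest, made up 25.4% of the macrophages of that sample, the highest share in MET. The sum was also the deepest of MET macrophages (362899 UMIs). The part of makeup and depth in this value was not tested. Chance alone marks about 1 in 20 groups.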

How the results depend on the processing

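Of 167 counts of called genes recomputed under another setting, 144 stayed within 1.5 times the count reported, and 23 did not. With mouse as a replicate block, 4 genes were called in core against margin monocytes and 5 in MET against distal monocytes. The block changed no other count by that much. Without a filter on low counts, 3 were called in core against margin macrophages, 8 in MET against distal macrophages, 0 in Pre-MET monocytes, and 3, 2 and 1 in primary tumor against core monocytes, macrophages and DCs. DESeq2 called 3 in MET against distal monocytes, 1 in primary tumor against core monocytes and 1 in macrophages. With cells of at least 1000 UMIs, 0 were called in MET against distal monocytes, 1 in macrophages (9 against 2 sums) and 1 in Pre-MET monocytes. The macrophage call was Ctsb, and none of the macrophage genes called in the main fit was called at that setting. With sums of at least 20 cells, 1, 1 and 3 were called in primary tumor against core monocytes, macrophages and DCs. Leaving out 1 mouse left 0 to 1 calls in Pre-MET monocytes, with Ctsb at -0.66 to -0.56 and Ctss at -0.68 to -0.49. The cause of these changes was not tested.

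Of 153 scores 5 moved by more than the spread. The distance of Mac_Cd9 from the mean of labels was 1.27 with a pseudocount of 10 CPM and 0.80 from summed CPM, that of Neut_Camp -2.14 and -2.60, and core minus margin in macrophages was -0.29 within the mice with both tissues. Pld3 in MET against distal macrophages turned to 0.14 without a filter. Of 135 values of single genes, 89 kept direction and call, 25 lost the call and 20 gained it. The fit on mice with both tissues without the block was chosen after seeing the data, and called 0 in core against margin monocytes, 1 in MET against distal monocytes and 6 in macrophages (3 higher and 3 lower). Depth limits the scarce genes: 14 of 32 could not be tested in core against margin monocytes.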
